A study of Mus musculus with 14 samples.

Results

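Loss of histone H3 lysine 4 methylation in YAP livers was followed along 10 mouse genes: Ttc39c, Adk, Mtss1, A1cf, Shb, Atxn2, Zfand3, Rere, Slc31a1 and Stim2. These are 10 of 21883 protein-coding genes, and each was taken as its mm10 gene body with 5 kb on both sides. These windows held 662 of the 123145 regions in the 6 lists. The genes were selected on measured values, the bases of H3K4me2 or H3K4me1 listed in WT and not in YAP, so their totals of both marks in the 2 genotypes are given as a description and support nothing. Livers of wild-type C57BL/6 mice (WT) were compared with livers of mice of the same listed strain that carry an inducible YAP transgene (YAP). Doxycycline at 50 mg/L in drinking water for 10 days, the agent that switches the transgene on, is given for every sample, and the labels do not say whether WT mice drank it. The sources used here name neither the promoter that drives the transgene nor the age and sex of the mice. Chromatin immunoprecipitation sequencing was done with antibodies against H3K4me1, H3K4me2 and LSD1, with 2 replicates for each antibody and genotype and 1 input library for each genotype, 14 libraries in all.

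Dimethylated lysine 4 of histone H3 (H3K4me2) lies around active gene starts and at enhancers, and the monomethylated form (H3K4me1) is typical of enhancers and of the borders of active starts. LSD1, encoded by Kdm1a, removes methyl groups from both forms and is found at promoters and enhancers, often with co-repressors. YAP is the transcriptional co-activator restrained by the Hippo pathway, and in liver its activity controls organ size and hepatocyte identity.

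Each antibody and genotype has 1 list of enriched regions that stands for both replicates, so no spread between replicates exists, nothing could be tested, and the read depth is unknown. H3K4me2 had 54219 regions in WT and 51676 in YAP, H3K4me1 had 5905 and 6274, and LSD1 had 1718 and 3353 entries. A WT base is called kept where the YAP list of the same mark also covers it and lost where it does not, and a base covered in YAP alone is called gained. A lost base is one that is not listed in YAP, where the mark may still be present below the threshold of the list. In whole liver, fewer cells of a type and less mark per cell cannot be told apart. All 8 hepatocyte markers examined carried H3K4me2 in both genotypes, and none of the 3 markers of other organs (Myh6, Snap25 and Ins2) did. H3K4me2 over the hepatocyte markers summed to 89.8 kb in WT and 61.5 kb in YAP, with 3 of the 8 lower by 1.5 times. Over 5 macrophage markers it summed to 5.15 kb in WT and 13.3 kb in YAP, with 4 of the 5 higher by 1.5 times, and Adgre1, Clec4f and Csf1r had none in WT. Single genes made up most of the differences in the other lists. Of 5 bile duct markers Spp1 had 0.619 kb in WT and 3.75 kb in YAP, and Krt7 and Krt19 had none. Of 4 endothelial markers Stab2 had 2.16 and 4.71 kb, Cdh5 none and 0.798 kb, Pecam1 none and 0.22 kb, and Kdr 1.51 and 1.53 kb. Of 3 lymphocyte markers Ptprc had none in WT and 2.70 kb in YAP. Of 4 stellate cell markers Reln had 6.38 kb in WT and 1.52 kb in YAP, Lrat 0.406 and 0.629 kb, and Des and Pdgfrb none. The part of these cell types in the losses below was not tested.

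H3K4me2 covered 248.8 kb of the 10 windows in WT and 129.9 kb in YAP. Of the WT bases 47.9% were kept, against 78.2% over the windows of all protein-coding genes. Ttc39c had the most to lose and kept least, so the other 9 genes alone kept 53.7%. Only 10.6 kb was gained over the 10 windows, against 129.6 kb lost. The number of covered bases was lower in YAP in each of the 10 genes, as in 59.1% of all genes with H3K4me2. It was lower by at least 1.5 times in 6 of them, a difference that 7.25% of 14912 genes with H3K4me2 showed in that direction, and higher by that factor in none, where 7.71% of genes were. The 6 were Ttc39c, Adk, Mtss1, A1cf, Shb and Atxn2. With the higher-scoring 50% of each list, Atxn2 (log2 difference -0.22, against -1.20) and Shb (-0.46, against -0.67) were no longer lower by 1.5 times, and Slc31a1 (-0.61) was. The other 4 had milder differences, with 0.52 less on the log2 scale, after 500 bases were added to both values, in Slc31a1, 0.47 less in Rere, 0.31 less in Zfand3 and 0.19 less in Stim2. Ranked by net bases lost among all genes, Ttc39c, Adk and Mtss1 stood at 1, 2 and 3, A1cf at 8, Shb at 11, Atxn2 at 13 and Rere at 18.

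H3K4me1 covered far less of these genes, 66.7 kb in WT and 41.9 kb in YAP, and 22.3% of the WT bases were kept, close to the 19.9% of all gene windows. Much of it was listed elsewhere in YAP, with 51.8 kb lost and 27.0 kb gained. In 8 of the 10 genes YAP had fewer bases than WT, as in 43.8% of genes with H3K4me1. In 6 of the 10 genes YAP had at least 1.5 times fewer bases, where 23% of 3168 genes with H3K4me1 had so: A1cf, Shb, Atxn2, Zfand3, Slc31a1 and Stim2. Ttc39c was the one gene higher by that factor, on 1 YAP region of 352 bp and none in WT, where 34% of all genes were higher. Ranked by net H3K4me1 bases lost among all genes, Zfand3 stood at 2, Atxn2 at 4, A1cf at 16, Shb at 24 and Mtss1 at 25. So the 2 marks named the same genes only in part. A1cf, Shb and Atxn2 were lower by 1.5 times for both marks. Adk, second for H3K4me2, had more H3K4me1 in YAP (3.34 kb in WT, 4.41 kb in YAP). Stim2, which kept 80.7% of its H3K4me2, kept none of its H3K4me1.

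**Figure D1:**
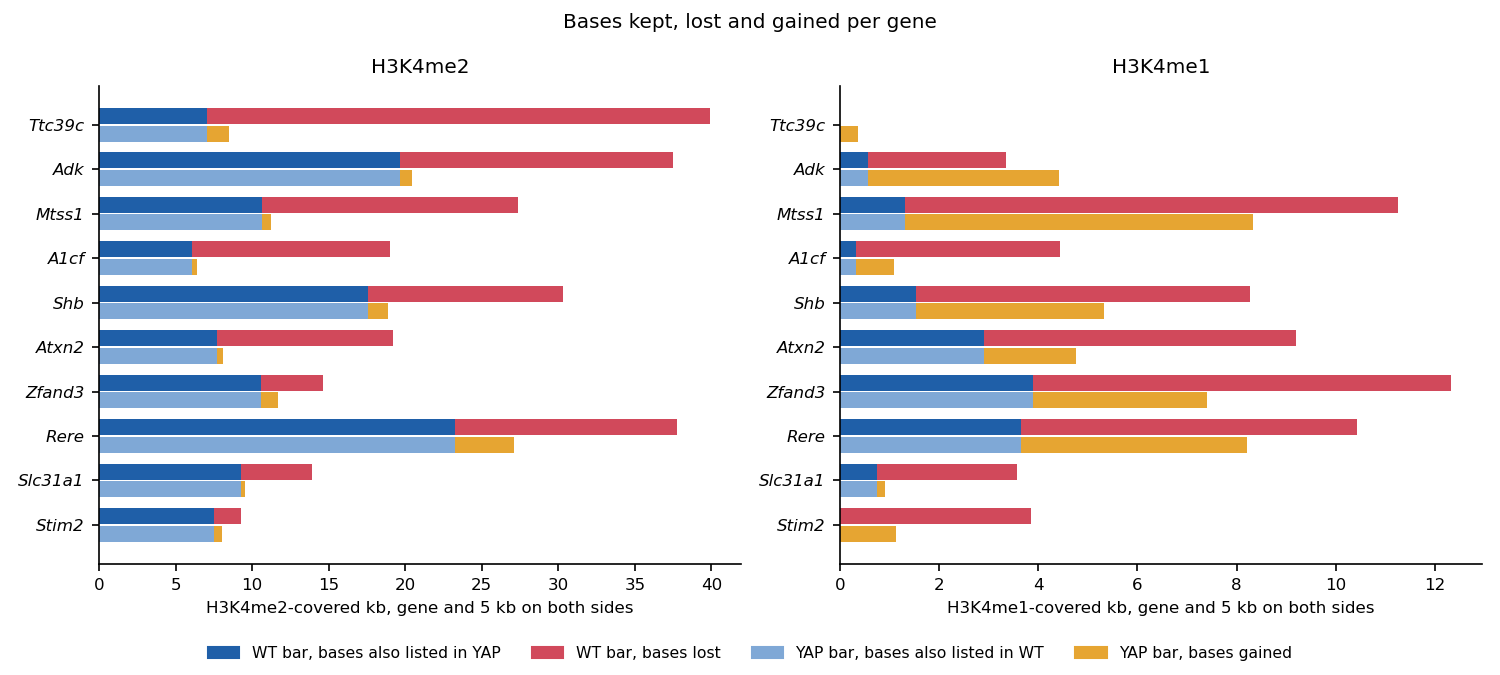
Kilobases covered by H3K4me2 (left) and H3K4me1 (right) in each gene with 5 kb on both sides. The upper bar of a gene is WT, split into bases kept and lost, and the lower bar is YAP, split into bases also listed in WT and bases gained. Gains are short for H3K4me2, at most 3.88 kb in Rere, and exceed the kept bases for H3K4me1 in 7 genes, among them Adk, Mtss1, Shb and Rere.

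**Figure D2:**
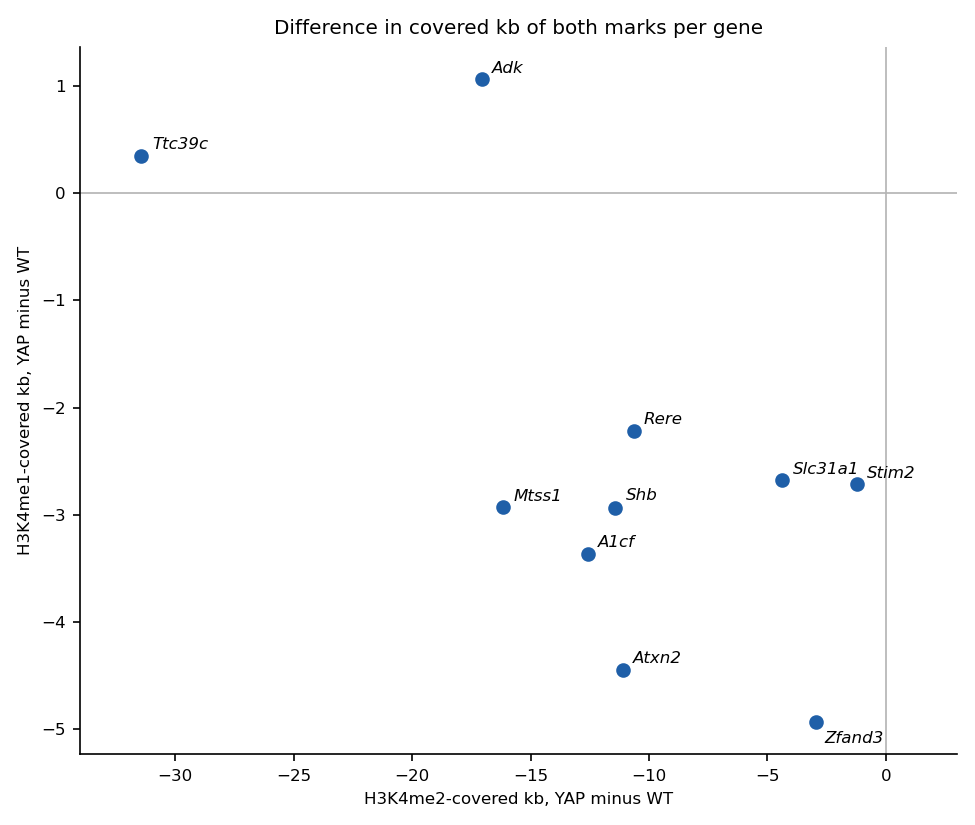
Difference in covered kb between YAP and WT for H3K4me2 (horizontal axis) and H3K4me1 (vertical axis), 1 point for each gene. Ttc39c and Adk lie far to the left and above 0 on the vertical axis, while Zfand3 lies lowest with a small H3K4me2 difference.

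The regions of the 10 genes absent from YAP were on the whole shorter and of lower signal than those kept, as in the WT list as a whole. Of 228 WT H3K4me2 regions in the windows, 119 (52.2%, Wilson 95% interval 45.7% to 58.6%, which covers counting error only) overlapped no YAP region, where 26.4% of the whole WT list did. Their median length was 414 bp against 932 bp for the 109 regions that overlapped a YAP region, and their median signal, the authors' enrichment value, was 3.16 against 4.90. Over the whole list the medians were 311 bp against 792 bp and 3.16 against 5.16. The longest region of the list without a YAP counterpart, 7386 bp with a signal of 7.68, lay in Ttc39c. Among the higher-scoring 50% of the WT list, 17.2% of 87 regions of the 10 genes were absent from YAP, and 4.91% of that part of the list as a whole. In the other direction 14 of 132 YAP H3K4me2 regions (10.6%) had no WT counterpart, against 21.6% of the YAP list. For H3K4me1, 128 of 180 WT regions (71.1%, 64.1% to 77.2%) were absent from YAP and 61 of 110 YAP regions (55.5%) from WT, against 74.5% and 76.5% of the lists. Of the YAP-only H3K4me1 regions 47.5% lay within 1 kb of a WT H3K4me1 region, and 20.2% over the whole list. The genes were chosen for marks listed in WT, and WT H3K4me1 was denser in them. From 20 to 40 kb from the start it covered 9.41% of the sequence in the 8 genes of known direction of transcription. Over all genes of known direction it covered 0.209%. A near WT region is therefore likelier from the choice alone, and closeness beyond that was not tested.

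The losses were uneven along the genes. Because the genes were chosen for lost bases, kept shares below those of all genes follow in part from the choice. For 8 of the 10 genes the direction of transcription was known, and for Ttc39c and Mtss1 positions are counted from the lower-coordinate end. Over the 8 genes 93.1% of WT H3K4me2 bases within 1 kb of the start were kept in YAP, against 90.5% over all genes of known direction. With the rest of each gene cut into 3 equal parts, 50.7% were kept in the part nearest the start (77.2% over all genes), 49.3% in the middle part (66.5%) and 69.4% in the last part (65.2%). The last part is mostly Rere, with 10.8 of its 13.6 kb of WT H3K4me2. By distance, 96.1% of WT H3K4me2 bases were kept from the start to 2 kb inside the gene and 89.3% from 2 to 5 kb. From 5 to 10 kb 38.4% were kept and from 10 to 20 kb 20.02%, where all genes of known direction kept 62.1% and 61.7%. Only 4 of the 8 genes, A1cf, Shb, Atxn2 and Slc31a1, had WT H3K4me2 from 10 to 20 kb. Farther in, 48.0% was kept from 20 to 40 kb, 34.5% from 40 to 80 kb and 60.2% from 80 to 400 kb, against 63.4%, 64.3% and 65.7% over all genes. Adk held 17.3 of the 37.7 kb from 20 to 40 kb and 13.2 of the 21.2 kb from 40 to 80 kb. Without Adk 37.1% and 43.3% were kept there, so the order of these 2 classes rests on Adk. Rere held 33.3 of the 38.9 kb from 80 to 400 kb, and without it 59.9% of 5.56 kb was kept. From 10 to 20 kb the share was 11.7% without Shb, which kept the most there, and 28.2% without A1cf, which kept none there. Neither mark was listed within 1 kb of the far end of the 8 genes or in the 5 kb beyond it, in either genotype. H3K4me1 was absent from the first kilobase on both sides of the start in both genotypes.

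**Figure D3:**
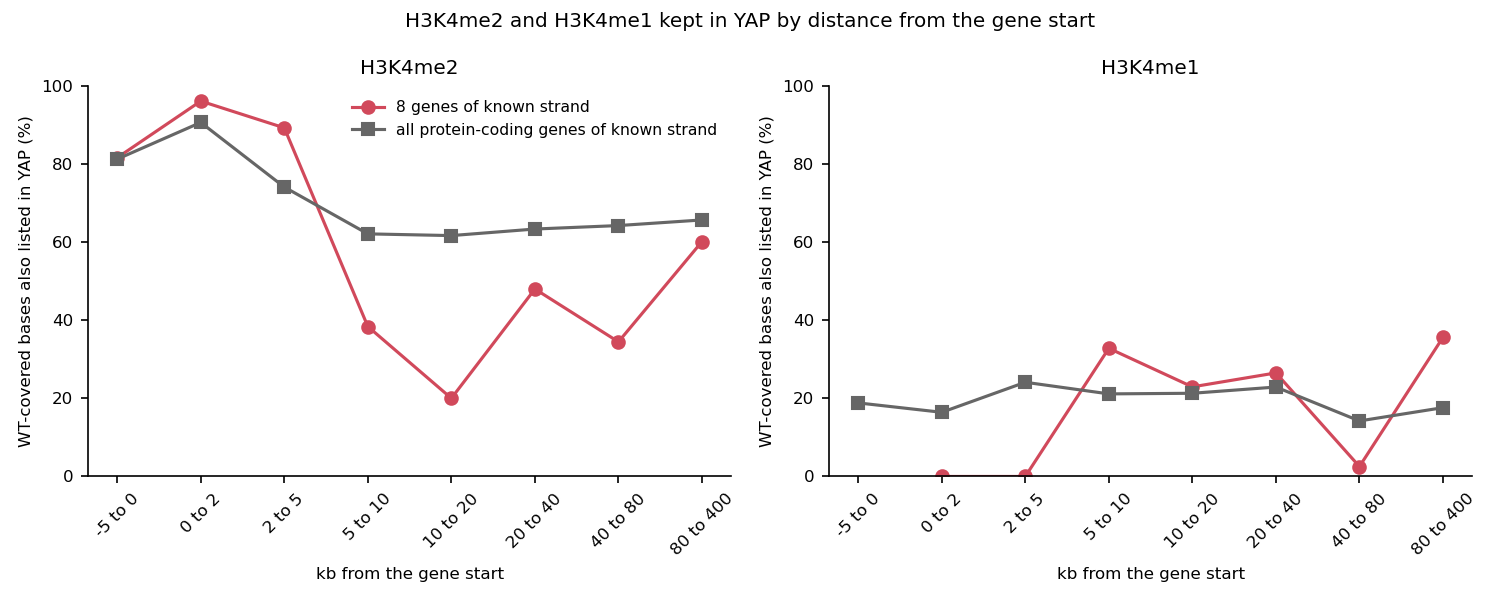
Share of WT-covered bases also listed in YAP (%), by distance from the gene start in kb, for the 8 genes of known strand (red) and all protein-coding genes of known strand (grey). For H3K4me2 the red line lies at or above the grey line up to 5 kb and below it beyond. A missing point means that WT had no base there, and the H3K4me1 points below 5 kb rest on under 1 kb of WT bases each.

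**Figure D4:**
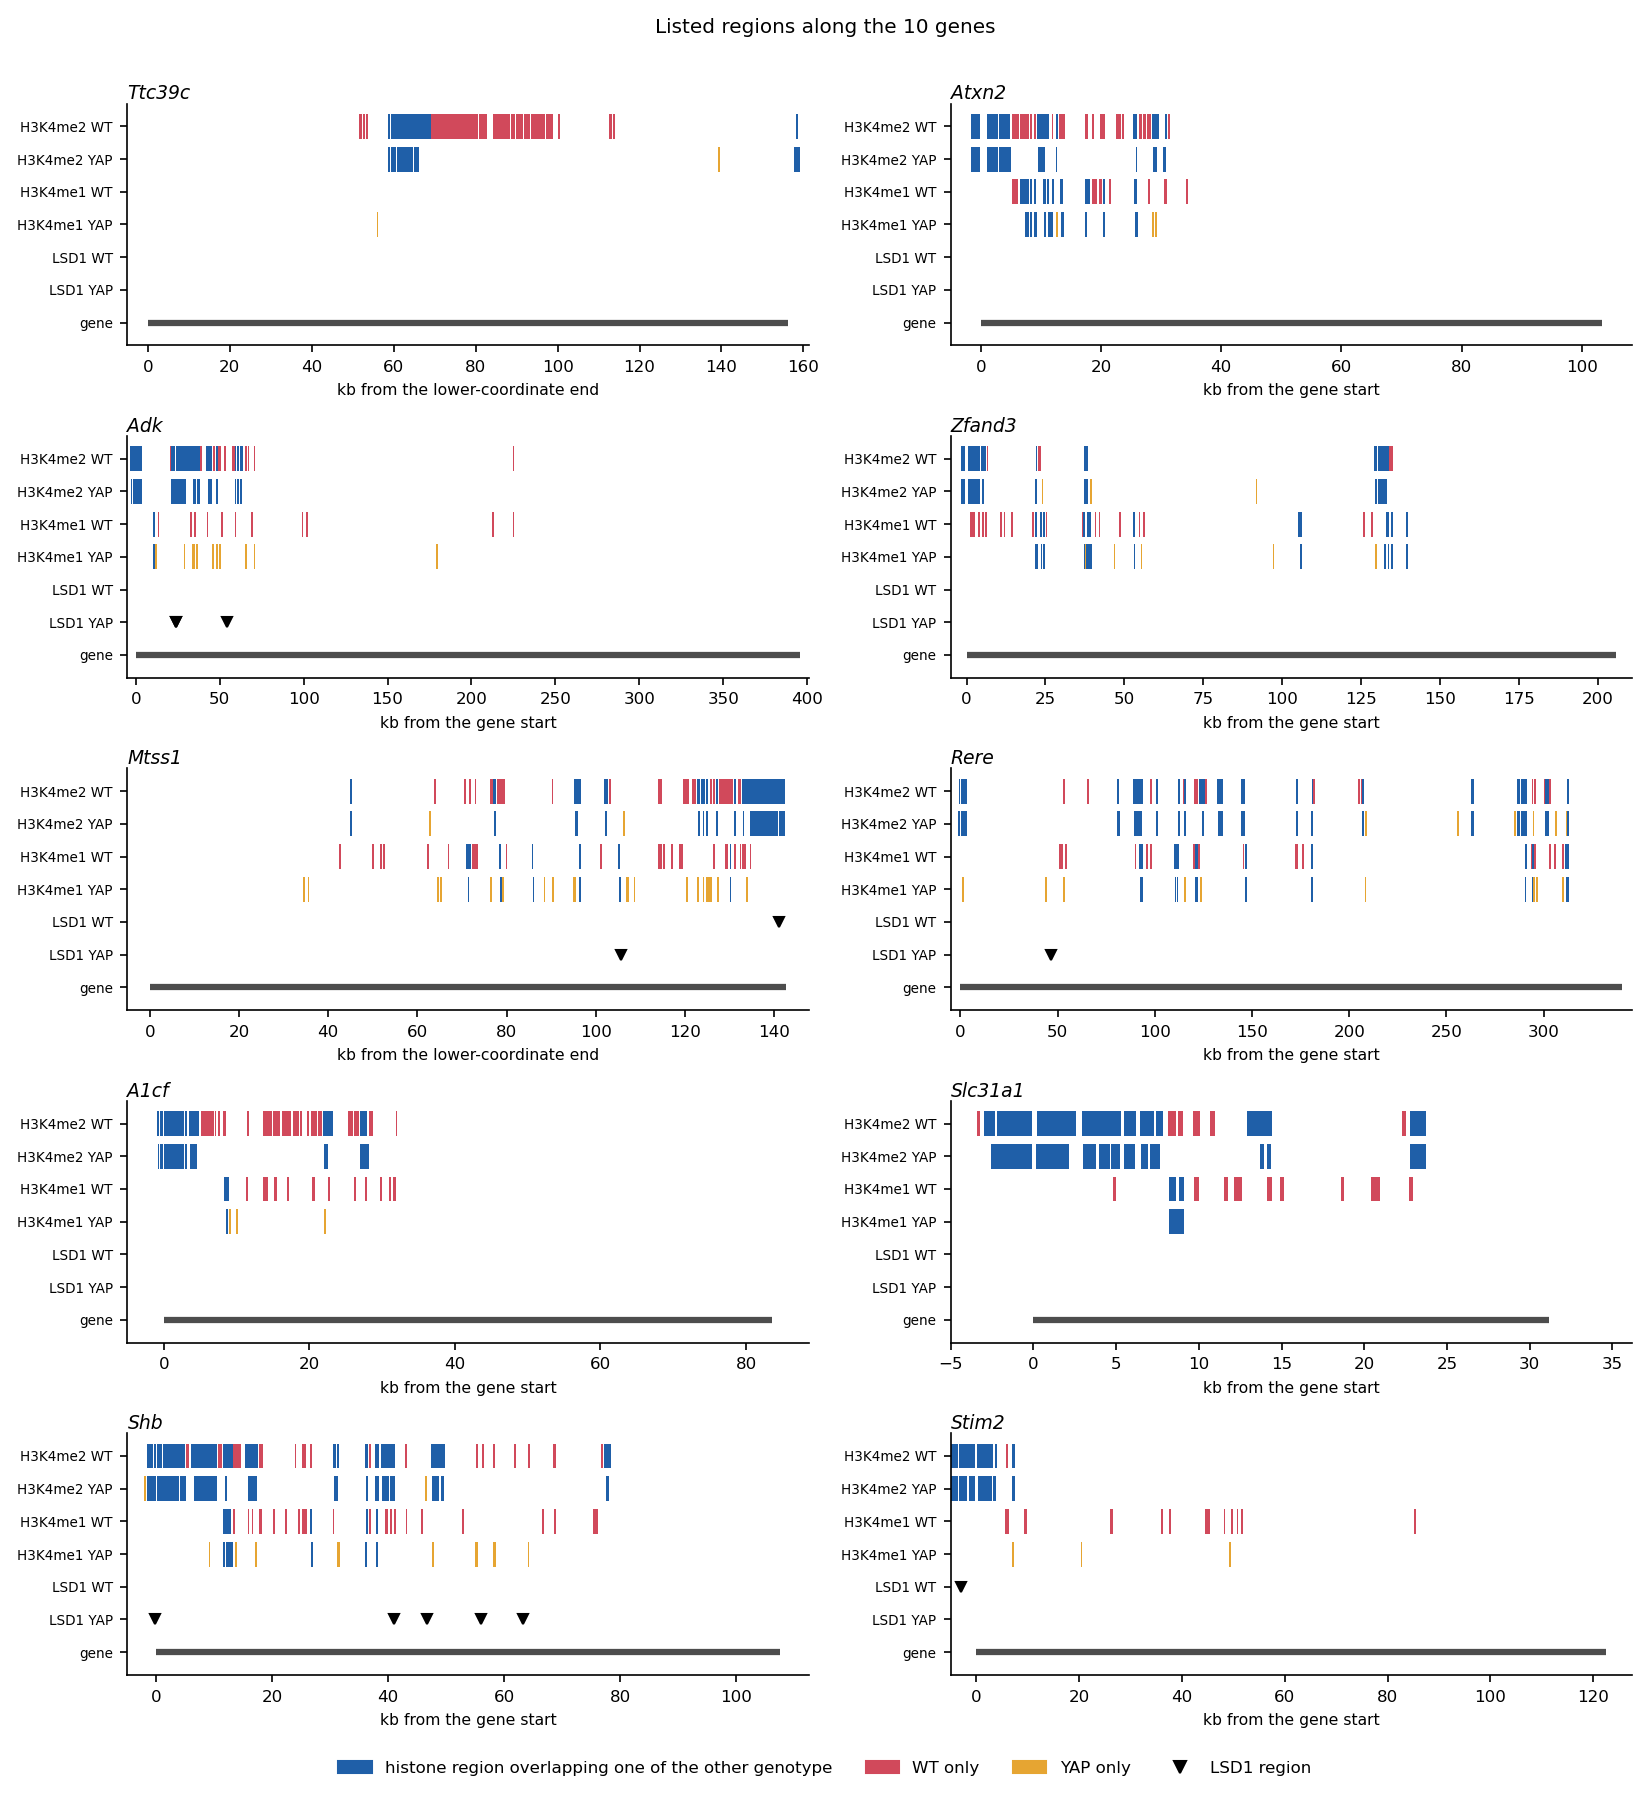
Regions of the 6 lists along the 10 genes, with the gene body as a grey bar and 5 kb on both sides, positions in kb. Histone regions are blue where they overlap a region of the other genotype, red where WT only and yellow where YAP only, with short regions drawn at a minimum width of 1/400 of the axis, and triangles mark LSD1. Red H3K4me2 blocks mostly sit inside the genes, the regions at the 8 oriented starts are blue in the main, and blue regions also lie far inside, as in Rere.

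Adk encodes adenosine kinase, which turns adenosine into AMP and in liver clears the adenosine that the methionine cycle releases. The gene (chr14:21052574-21448569) is 396 kb long, and H3K4me2 covered 37.5 kb of its window in WT and 20.4 kb in YAP. The start had the mark in both genotypes, and the region after it ran over 3394 bp in WT (chr14:21052628-21056021) and 3730 bp in YAP (chr14:21052640-21056369), the latter with the longest gain of the gene, 348 bp. The losses lay around a wide block inside the gene. Its WT region of 8581 bp (chr14:21076209-21084789) kept 75.6% of its bases and ended earlier in YAP, with the longest lost stretch of Adk, 2096 bp, at its far side (chr14:21082694-21084789). The next region of 5876 bp kept 40.3%. Between 40 and 80 kb from the start 29.2% of 13.2 kb was kept. In the 5 kb before the start, which belongs to the neighbour Ap3m1, 3.42 kb was occupied in WT and 1.92 kb in YAP.

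H3K4me1 was listed at other places of Adk in the 2 genotypes, since 11 of 12 WT regions were absent from YAP and 11 of 12 YAP regions were absent from WT. The longest lost regions measured 352 bp (chr14:21151724-21152075) and 273 bp (chr14:21103592-21103864), and the longest gained one 498 bp (chr14:21088747-21089244), on bases with H3K4me2 in WT and none in YAP. LSD1 was listed in YAP alone, in 3 entries. A pair of overlapping entries lay at the near edge of the wide block (chr14:21076122-21076521 and chr14:21076402-21076801), over H3K4me2 that was kept. The other (chr14:21106580-21106979), 54.2 kb from the start, lay 880 bp from the nearest WT H3K4me2 region and 4815 bp from the nearest in YAP. The pair reaches into the promoter window of a second annotated start of Adk, 23.6 kb inside the gene. That window (chr14:21075902-21076201, plus strand, RefSeq, GRCm38.p6) is shown because it joins an annotated start with LSD1 listed in YAP, and the capitals mark the 80 bases under the LSD1 entry. It held no H3K4me2 in WT and 128 bases of it in YAP.
Adk second start: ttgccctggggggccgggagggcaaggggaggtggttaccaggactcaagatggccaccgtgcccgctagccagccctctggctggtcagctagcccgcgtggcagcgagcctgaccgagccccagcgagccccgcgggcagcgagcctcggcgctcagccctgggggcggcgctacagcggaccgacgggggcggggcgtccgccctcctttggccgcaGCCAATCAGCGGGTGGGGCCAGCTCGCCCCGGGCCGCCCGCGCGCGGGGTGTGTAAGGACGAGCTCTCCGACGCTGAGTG

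A1cf encodes the RNA-binding partner of Apobec1 in the editing of Apob mRNA. It kept its start, and of 16.4 kb of WT H3K4me2 beyond 2 kb from the start 22.1% was kept. H3K4me2 occupied 19.0 kb in WT and 6.38 kb in YAP over the gene (chr19:31868756-31952365). The region just after the start measured 2682 bp in both genotypes, chr19:31868799-31871480 in WT and chr19:31868781-31871462 in YAP. From 0 to 2 kb all WT bases were kept, and from 5 to 20 kb none of 2.85 kb and 5.30 kb in the 2 distance classes was. A run of 13 WT regions, from 5.94 to 21.5 kb, had no YAP counterpart. The run spans 16.7 kb and covers 9.46 kb, and its longest region is the longest lost stretch of the gene, 1796 bp (chr19:31873797-31875592). The longest gain was 144 bp (chr19:31896739-31896882). The promoter window (chr19:31868563-31868862, plus strand, RefSeq, GRCm38.p6) is printed as the part of A1cf whose H3K4me2 remained, with the 126 bases kept in capitals.
A1cf start: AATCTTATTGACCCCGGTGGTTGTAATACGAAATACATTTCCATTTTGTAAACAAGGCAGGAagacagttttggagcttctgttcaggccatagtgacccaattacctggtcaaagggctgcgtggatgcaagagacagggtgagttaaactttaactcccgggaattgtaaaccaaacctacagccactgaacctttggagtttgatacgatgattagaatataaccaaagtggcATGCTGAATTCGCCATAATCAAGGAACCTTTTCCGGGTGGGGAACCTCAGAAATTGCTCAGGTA

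H3K4me1 of A1cf occupied 4.45 kb in WT and 1.08 kb in YAP. Of 12 WT regions 11 were lost, all in 1 run from 11.4 to 31.7 kb. The longest, 621 bp (chr19:31882397-31883017) and 402 bp (chr19:31879984-31880385), lay on H3K4me2 that was listed in WT and not in YAP, the first wholly and the second in part. The longest gained region, 291 bp (chr19:31890742-31891032), lay on H3K4me2 of both genotypes. No LSD1 entry was listed in the window, and the nearest lay 155 kb away in YAP and 1920 kb away in WT.

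Slc31a1 encodes CTR1, the importer that brings copper into the cell. It is the shortest of the 10 genes (chr4:62360583-62391769, 31.2 kb), and H3K4me2 occupied 13.9 kb in WT and 9.53 kb in YAP. The regions on both sides of the start were kept: 2091 bp before it in WT (chr4:62358374-62360464) against 2471 bp in YAP (chr4:62358020-62360490), and 2404 bp after it in WT (chr4:62360767-62363170) against 2013 bp in YAP (chr4:62360748-62362760). The flank before the start belongs to the neighbour Fkbp15, with 2.96 kb in WT and 2.47 kb in YAP. From 8.39 to 10.8 kb 4 WT regions in a row were absent from YAP. The longest lost stretch had 762 bp (chr4:62373515-62374276) and the longest gain 94 bp (chr4:62358280-62358373). H3K4me1 went from 11 regions to 1, and 9 of the WT regions had no counterpart. The longest lost ones, 546 bp (chr4:62380962-62381507) and 484 bp (chr4:62372683-62373166), lay off H3K4me2 in both genotypes, and the 1 YAP region overlapped WT regions. LSD1 was not listed, the nearest entry being 133 kb away in each genotype.

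**Figure D5:**
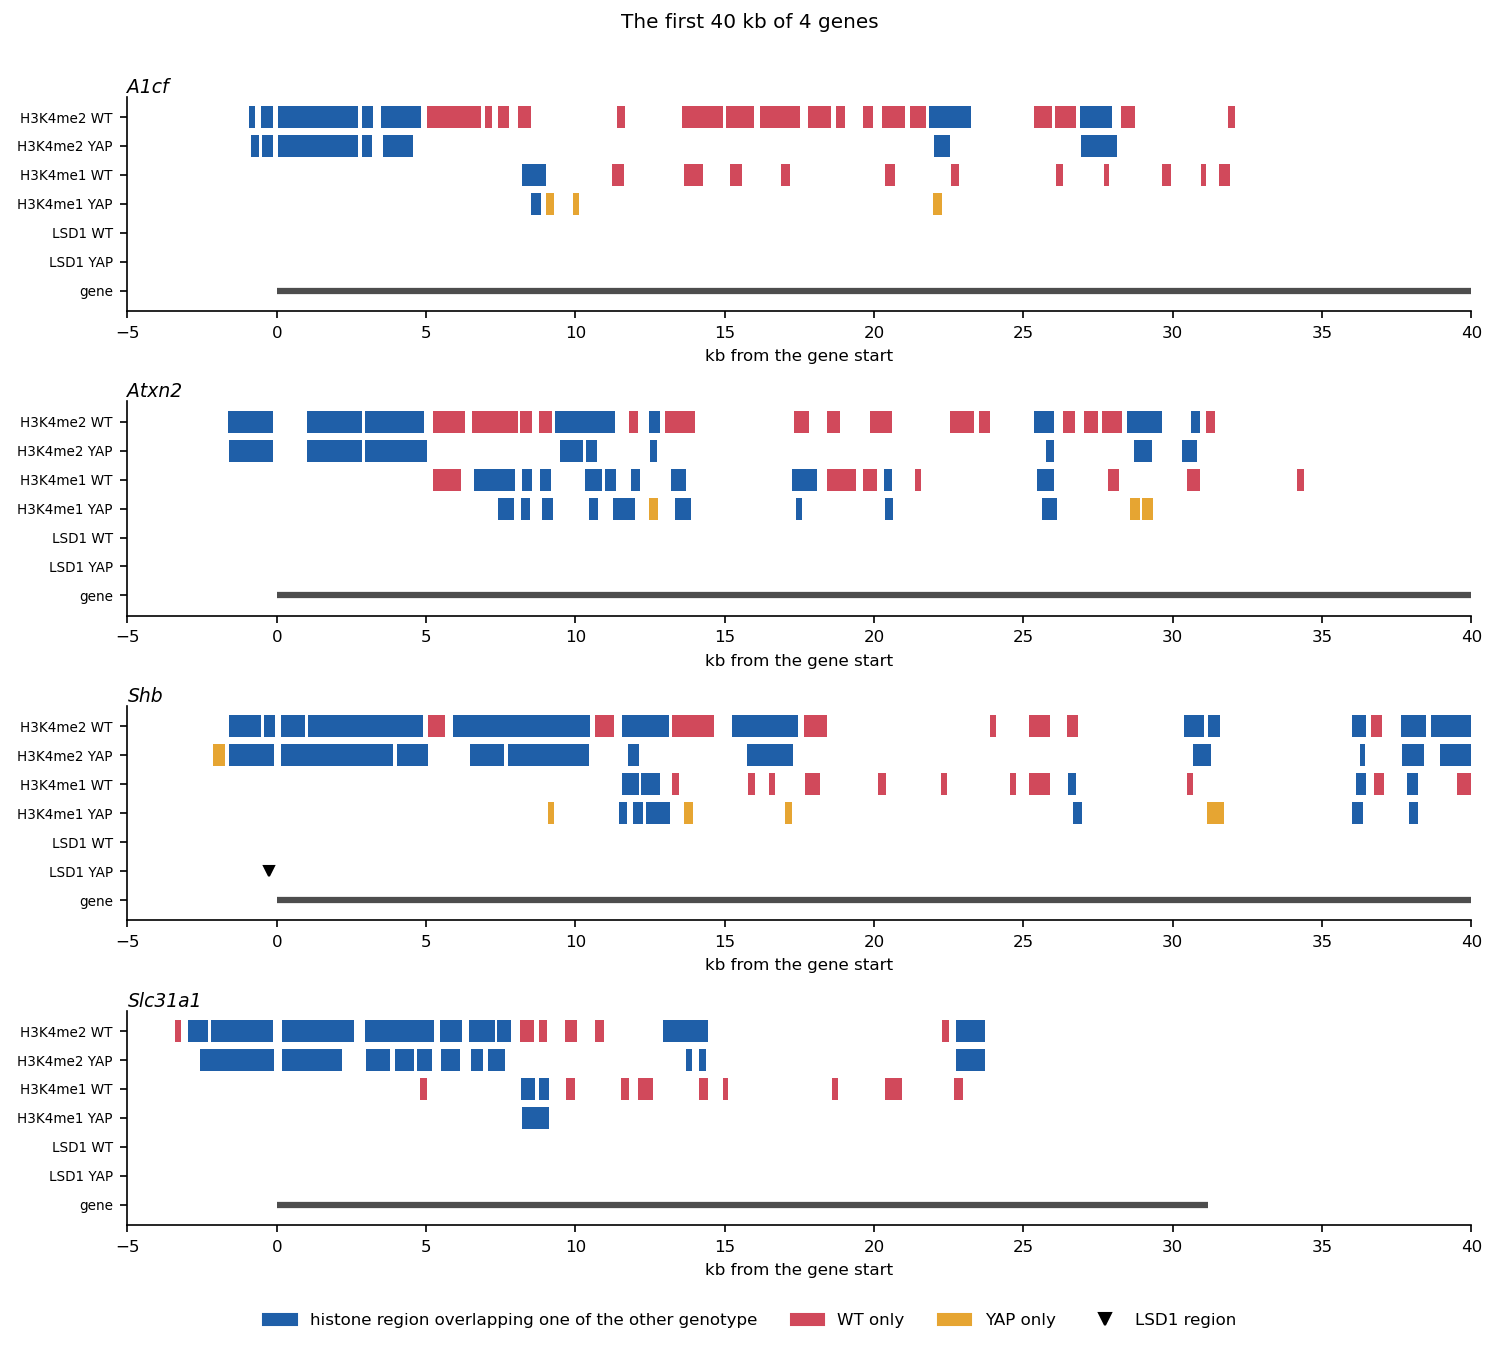
The first 40 kb of A1cf, Atxn2, Shb and Slc31a1, positions in kb from the gene start, with colours for regions of both genotypes (blue), WT only (red) and YAP only (yellow). Up to about 5 kb the H3K4me2 regions of both genotypes largely match, and beyond it red regions follow in A1cf and Atxn2 in particular. The LSD1 triangle at Shb lies just before the start.

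Shb encodes an adaptor with an SH2 domain that couples receptor tyrosine kinases to downstream signalling. H3K4me2 covered 30.3 kb of its window (gene chr4:45423276-45530828, minus strand) in WT and 18.8 kb in YAP. At the start WT had regions of 804 bp (chr4:45529875-45530678) and 3843 bp (chr4:45525937-45529779), and YAP had 1 region of 3738 bp over the first and most of the second (chr4:45526946-45530683) and another of 1030 bp over the rest (chr4:45525776-45526805). Before the start, WT regions of 369 bp (chr4:45530896-45531264) and 1069 bp (chr4:45531372-45532440) likewise joined into 1535 bp in YAP (chr4:45530910-45532444). A gain of 416 bp lay further out (chr4:45532548-45532963). Of the WT bases 95.2% were kept from 2 to 5 kb, 72.8% from 5 to 10 kb, 33.1% from 10 to 20 kb, 45.5% from 20 to 40 kb and 48.8% from 40 to 80 kb. The longest lost stretch, 1408 bp (chr4:45516186-45517593), lay 13.9 kb inside the gene. A last run of 7 small WT regions, between 55.3 and 76.8 kb, covered 2.10 kb and was absent from YAP.

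Shb had more LSD1 than any other of the 10 genes, with 5 YAP entries and none in WT. Its H3K4me1 went from 8.27 kb in WT to 5.33 kb in YAP. The longest H3K4me1 regions lost, 770 bp (chr4:45454664-45455433) and 713 bp (chr4:45504922-45505634), had no H3K4me1 or H3K4me2 in YAP, and the longest gained had 593 bp (chr4:45472188-45472780). The LSD1 entry at the start (chr4:45530906-45531305) had 355 of its 400 bases on kept H3K4me2 and 4 on lost. The entry 41.1 kb inside (chr4:45489570-45489969) had 343 bases on kept and 11 on lost H3K4me2, and 230 bases on H3K4me1 listed in WT alone. The entry at 46.7 kb (chr4:45483919-45484318) lay partly on H3K4me2 gained in YAP, 130 bases. The remaining ones, at 56.0 kb (chr4:45474667-45475066) and 63.2 kb (chr4:45467389-45467788), lay on no H3K4me2 of either genotype, 49 and 662 bp from WT regions that were lost and 237 and 668 bp from YAP H3K4me1. The promoter window (chr4:45530779-45531078, minus strand, RefSeq, GRCm38.p6) is printed because LSD1 was listed over it in YAP while 169 of its bases had H3K4me2 in YAP and 183 in WT. Capitals mark the 173 bases under LSD1.
Shb start: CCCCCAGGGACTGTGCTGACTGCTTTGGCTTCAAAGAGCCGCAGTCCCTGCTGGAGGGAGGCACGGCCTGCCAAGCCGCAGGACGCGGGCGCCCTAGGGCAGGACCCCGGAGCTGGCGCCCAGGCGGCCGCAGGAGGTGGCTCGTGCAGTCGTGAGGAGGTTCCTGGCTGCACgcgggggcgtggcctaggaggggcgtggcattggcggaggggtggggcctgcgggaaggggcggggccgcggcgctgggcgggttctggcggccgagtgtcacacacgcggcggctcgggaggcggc

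Mtss1 encodes a membrane-bending scaffold with an I-BAR domain that binds actin. Its H3K4me2 is concentrated toward the higher-coordinate end of the gene (chr15:58941234-59083956), while H3K4me1 lies farther inside. H3K4me2 occupied 27.4 kb in WT and 11.2 kb in YAP. The widest region near this boundary measured 9281 bp in WT (chr15:59073916-59083196), the longest H3K4me2 region of the 10 genes. It kept 79.9% of its bases, in 3 YAP regions of which the longest has 6138 bp (chr15:59075890-59082027). Next to it the regions were lost, with the longest lost stretch of 1899 bp at chr15:59070074-59071972, beside another lost region in a run of 3.02 kb. The longest gain was 246 bp (chr15:59047491-59047736). H3K4me1 had 28 regions in WT and 24 in YAP, with 21 and 18 of them absent from the other genotype. Those counts are near the shares of the whole lists, 74.5% in WT and 76.5% in YAP. The longest lost were 1561 bp (chr15:59013370-59014930) and 851 bp (chr15:59074003-59074853). The first is the longest WT-only H3K4me1 region of the whole list, and only 370 of its bases lay on WT H3K4me2. The second lay wholly on WT H3K4me2. The longest gained had 653 bp (chr15:59048089-59048741).

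LSD1 at Mtss1 had 1 entry in each genotype, at different places. The WT entry (chr15:59081992-59082387) lay in the wide H3K4me2 region, with 225 bases on kept and 171 on lost H3K4me2. The YAP entry (chr15:59046643-59047042) lay 35.0 kb away, 449 bp from YAP H3K4me2 and touching H3K4me1 of both genotypes.

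Stim2 encodes a calcium sensor of the endoplasmic reticulum that opens Orai channels when stores run low. H3K4me2 lies only around its start (gene chr5:53998523-54121057), 9.28 kb in WT and 8.06 kb in YAP. The region after the start had 3248 bp in WT (chr5:53998565-54001812) and 2646 bp in YAP (chr5:53998852-54001497). The longest lost stretch was the 1 WT region without a YAP counterpart, 417 bp (chr5:54004333-54004749), and the longest gain 389 bp (chr5:54001813-54002201). H3K4me1 showed the loss: all 13 WT regions, spread from 5.75 to 85.4 kb over 3.85 kb of bases, were absent from YAP, and 3 other regions of 1.14 kb were listed there. The longest lost, 581 bp (chr5:54007815-54008395) and 503 bp (chr5:54024550-54025052), lay off H3K4me2. The longest gained, 539 bp (chr5:54005383-54005921), lay on H3K4me2 of both genotypes. LSD1 was listed in WT alone, 3.01 kb before the start (chr5:53995313-53995708), with all 396 bases on kept H3K4me2.

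Atxn2 encodes ataxin-2, an RNA-binding protein that works with poly(A)-binding protein. Over the gene (chr5:121711609-121814950) H3K4me2 occupied 19.2 kb in WT and 8.07 kb in YAP, with the farthest region 31.3 kb from the start. Before the start 1489 bp in WT (chr5:121709989-121711477) stood against 1448 bp in YAP (chr5:121710021-121711468), and after it 1836 bp (chr5:121712634-121714469) against 1827 bp (chr5:121712635-121714461). From 2 to 5 kb 99.7% of the WT bases were kept and from 5 to 10 kb 12.3%. The longest lost stretch had 1531 bp (chr5:121718153-121719683) and the longest gain 298 bp (chr5:121741918-121742215). WT H3K4me1 lay on 56.9% of the H3K4me2 bases lost from Atxn2, the highest such share of the 10 genes, and on 10.7% of those kept. H3K4me1 itself occupied 9.20 kb in WT and 4.75 kb in YAP. The longest lost regions, 959 bp (chr5:121730036-121730994) and 926 bp (chr5:121716849-121717774), both lay on H3K4me2 listed in WT alone, and the longest gained had 358 bp (chr5:121740578-121740935). LSD1 was not listed, and the nearest entry was 6.83 kb away in WT and 204 kb away in YAP.

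RefSeq also gives Atxn2 a second start 26.9 kb inside the gene, in the stretch where H3K4me2 was lost. Its window (chr5:121738282-121738581, plus strand, RefSeq, GRCm38.p6) is shown as a promoter window of these genes whose listed H3K4me2 was lost whole, and the capitals mark the 68 lost bases. The window at the gene's first start kept 110 of 119 bases. Among the other windows, that of Stim2 lost all of its 18 bases and that of Rere 163 of 300.
Atxn2 second start: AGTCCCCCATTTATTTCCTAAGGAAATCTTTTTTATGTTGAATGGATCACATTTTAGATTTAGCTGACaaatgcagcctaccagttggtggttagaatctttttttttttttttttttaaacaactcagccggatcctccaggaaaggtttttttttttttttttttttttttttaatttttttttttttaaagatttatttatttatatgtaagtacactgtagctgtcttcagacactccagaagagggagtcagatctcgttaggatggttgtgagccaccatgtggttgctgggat

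The promoter table matched 8 of the 10 genes, with 10 windows, and Ttc39c and Mtss1 were not matched. None of the 10 windows held GGAATG on either strand, the letters of the core site of the TEAD factors that YAP binds through, and 14.7% of all 32851 promoter windows of the same length did. A missing match says only that these letters are not in those 300 bases.

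Rere encodes an atrophin-family nuclear co-regulator that works with histone deacetylases and in retinoic acid signalling. Its marks are spread over islands along 340 kb (chr4:150281511-150621966), with H3K4me2 on 37.8 kb in WT and 27.1 kb in YAP. At the start a WT region of 1725 bp (chr4:150281620-150283344) and 2 shorter ones were 1 region of 2883 bp in YAP (chr4:150281829-150284711). The longest lost stretch, 2395 bp (chr4:150401476-150403870), lay 121 kb inside, next to a region of 3559 bp of which 24.3% was kept. At 290 kb, in contrast, 99.1% of a region of 3495 bp was kept. Rere had the most H3K4me2 gained of the 10 genes, 3.88 kb, with the longest gain, 616 bp, at 285 kb (chr4:150566503-150567118). H3K4me1 had 10.4 kb in WT and 8.21 kb in YAP, with lost regions of 597 bp (chr4:150404090-150404686) and 361 bp (chr4:150379447-150379807), both on H3K4me2 listed in WT alone, and a longest gain of 438 bp (chr4:150334460-150334897). LSD1 had 1 YAP entry (chr4:150327638-150328037), 46.3 kb inside, 6428 bp from the nearest WT and 34.1 kb from the nearest YAP H3K4me2.

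Zfand3 encodes a zinc finger protein of the AN1 type. Here 72.3% of the WT H3K4me2 bases were kept, against 78.2% over all gene windows (14.6 kb in WT, 11.7 kb in YAP, gene chr17:30005039-30210823). The region after the start had 3813 bp in WT (chr17:30005536-30009348) and 3834 bp in YAP (chr17:30005556-30009389), with 3793 bp in common. The longest lost stretch had 762 bp (chr17:30010591-30011352) and the longest gain 257 bp (chr17:30028964-30029220). H3K4me1 covered 12.3 kb in WT, the most of the 10 genes, and 7.40 kb in YAP. Its first 10 WT regions, from 1.36 to 21.1 kb, were all absent from YAP, where H3K4me1 began at 22.2 kb. Further inside, 12 of the 31 WT regions had a YAP counterpart. The 19 regions absent from YAP are a smaller share than the 74.5% of the whole WT list. Of the WT H3K4me1 bases 31.6% were kept, against 19.9% over all gene windows. The longest lost were 535 bp (chr17:30009993-30010527) and 515 bp (chr17:30025848-30026362), and the longest gained had 495 bp (chr17:30101990-30102484). LSD1 was not listed in either genotype.

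Ttc39c encodes a protein with tetratricopeptide repeats, which bind other proteins. The listed H3K4me2 of this gene (chr18:12583103-12739404) lay inside it, mostly between 52 and 114 kb from the lower-coordinate end, and occupied 39.9 kb in WT and 8.51 kb in YAP. Nothing was listed within 1 kb of either boundary in either genotype. A WT region of 8434 bp (chr18:12643722-12652155) was listed over 5105 of its bases in YAP. After it came 13 WT regions in a row with no YAP counterpart, over 44.8 kb, of which they covered 27.9 kb. The longest of these, 7386 bp (chr18:12656364-12663749), is the longest of all 14292 WT H3K4me2 regions without overlap in YAP, and the run also holds those at ranks 9 and 10. The longest gain, 654 bp (chr18:12740776-12741429), lay outside the gene by the neighbour Cabyr, where 0.343 kb was occupied in WT and 1.54 kb in YAP. H3K4me1 was not listed in WT and had 352 bp in YAP (chr18:12638999-12639350), off H3K4me2. The neighbouring Lama3, and likewise Ndufb9 at Mtss1, Sh2b3 at Atxn2, Btbd9 at Zfand3 and Cdc26 at Slc31a1, reach into the windows with no listed H3K4me2 or H3K4me1 there. The nearest LSD1 entry to Ttc39c was 367 kb away in YAP and 2671 kb away in WT.

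LSD1, which the choice of genes did not use, was listed in 4 of the 10 genes in YAP (Adk, Mtss1, Shb and Rere) and in 2 in WT (Mtss1 and Stim2). Of all genes 11.1% had an entry in YAP and 5.9% in WT, and of genes at least as long as Slc31a1 15.8% and 8.09%. Entries in YAP alone were found in 3 of the 10 genes (8.08% of all genes) and in WT alone in 1 (2.85%). No LSD1 region was common to the genotypes, and 5 genes, Ttc39c, A1cf, Atxn2, Zfand3 and Slc31a1, had none in either. With both LSD1 lists at the same number of regions, each genotype had 2 of the 10 genes. Of the 10 YAP entries 4 lay on kept H3K4me2, 5 on no H3K4me2 of either genotype, and 1 on gained H3K4me2 alone. Of the 129.6 kb of H3K4me2 lost from these genes 15 bases lay under YAP LSD1 (0.0116%), against 1291 bases of the 119.3 kb kept (1.08%). The 4 entries on kept H3K4me2 are 400 bp each and make 3 after merging, so these shares rest on very few entries. The 1291 bases came from Adk (593) and Shb (698), and without Shb 0.583% of the kept and none of the lost H3K4me2 lay under YAP LSD1. Over all genes 0.583% of the lost and 1.21% of the kept H3K4me2 lay under YAP LSD1.

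The 2 marks also overlapped more where H3K4me2 was lost. WT H3K4me1 lay on 18.1% of the lost H3K4me2 bases of the 10 genes and on 8.91% of the kept ones, and over all genes on 3.41% and 1.79%. Bases with both marks in WT, 34.1 kb, most often had neither in YAP (49.9%), and 21.8% had H3K4me2 alone, 19.0% H3K4me1 alone and 9.30% both. Over all genes 48.0% of such bases had H3K4me2 alone in YAP and 28.3% neither. YAP H3K4me1 regions of the 10 genes lay more often on H3K4me2 of WT than of YAP livers, 68.2% of the 110 regions (59.0% to 76.1%) against 35.5% (27.1% to 44.7%), and over the whole YAP list the shares were 44.6% and 42.0%. The longest gained H3K4me1 regions of Adk and Shb met WT H3K4me2 that YAP lacked, that of Adk over its whole length and that of Shb over 228 bases only. The genes were chosen for losing these marks, so these shares describe them and give no test.

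Relatives and partners of the 10 genes were not chosen for a loss, so their list is no control for them. Of 63, 61 had H3K4me2, with 5 lower and 1 higher by 1.5 times and a median log2 difference of -0.09, beside -0.06 over all genes with H3K4me2, of which 7.25% were lower and 7.71% higher. Among those of adenosine and methionine handling, 2 of 10 were lower: Ahcy, which splits S-adenosylhomocysteine (8.65 kb in WT, 5.59 kb in YAP), and its relative Ahcyl1 (5.53 and 3.33 kb). Of 5 genes of Apob editing, Apob, the transcript that A1cf helps to edit, was lower (11.4 and 6.39 kb), and Apobec1, the editing enzyme, had 6.99 and 6.06 kb. Among 12 genes of copper handling, Steap4, a metal reductase, was lower (6.77 and 4.08 kb) and Mt1, a metallothionein, higher (4.21 and 6.71 kb), while the copper pump Atp7b had 8.46 and 10.2 kb. Shd, a relative of Shb, had 0.253 kb in WT and none in YAP. The 8 calcium store genes, the family genes of Zfand3, Mtss1 and Ttc39c and the partners of Rere and Atxn2 had no H3K4me2 difference of that size, with Stim1 at 6.23 and 6.27 kb. For H3K4me1, 27 of the 63 had bases, with 5 lower and 8 higher, where 23% and 34% of all genes with H3K4me1 were. Zfand6 had 4.27 kb of H3K4me1 in WT and 1.66 kb in YAP, and Jak1 5.36 and 9.35 kb. LSD1 was listed in 11 of the 63 in YAP and 3 in WT, where 11.1% and 5.9% of all genes had it.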

How the data were processed

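The members and gene lists were chosen with earlier results of these data known. mm10 is the build named in the submitters' processing notes. These also list deepTools 3.3.0, bedtools 2.26.0, Picard 1.126, SAMtools 1.7, BWA and Trimmomatic 0.39. Chromatin was cut with micrococcal nuclease, per the labels' protocols. Neither peak caller nor threshold is named in the sources used here. The authors deposited 1 list of regions for each antibody and genotype, with replicates combined. Each list gives a score deposited by the authors, a fold-type ratio (signal) deposited by the authors and, for the histone marks, the −log10 p-value deposited by the authors; the latter was not used. In the LSD1 lists the last columns, as deposited, hold other values and were not used. Score and signal ranked regions within a list and never compared genotypes.

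Overlapping regions of a list were merged and counted in bases against RefSeq gene positions (GRCm38.p6, mm10 coordinates). Log2 ratios had 500 bases added to both values. An overlap needed 1 bp. No exon positions were used, and strand came from the RefSeq promoter table (8 genes). All 10 genes are named, and within each gene every LSD1 region, the H3K4me2 region at the start, the longest H3K4me2 stretch lost and gained, the 2 longest H3K4me1 regions lost and the longest gained. Relatives are named at 1.5 times, up to 3 a group, and a few others were named after their values were seen. Intervals are Wilson 95%, assume independent regions and cover counting alone. Python 3.11.15, numpy 2.4.6 and pandas 2.3.3 were used, and overlaps were tested on simulated data against base-by-base counts.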

Additional observations from a re-analysis of the deposited data

How the results depend on the processing

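In all 10 genes H3K4me2 bases were fewer in YAP under each of 6 alternatives (100 or 2000 added bases, the gene body alone, 20 kb flanks, the higher-scoring 50% of each list, lists of equal number), and 5 to 7 genes were lower by 1.5 times. For H3K4me1 the count was 5 or 6, and 8 genes were lower in each alternative. No gene that passed 1.5 times changed its direction. The share of WT H3K4me2 regions absent from YAP (52.2%) was 72.4% with a reciprocal overlap of 50%, 30.3% where a YAP region within 1 kb counted, and 17.2% for the higher-scoring 50% of the WT list. In the last 2 settings the whole list had 12.6% and 4.91%. For H3K4me1 (71.1%) the reciprocal overlap gave 83.9%. Counting a YAP region within 1 kb gave 48.9%, below the 55.6% of the whole H3K4me1 list. YAP H3K4me1 was also denser in these genes, with 5.88% of the sequence from 20 to 40 kb against 0.258% over all genes of known direction. Closeness beyond that density was not tested. The share of H3K4me1 bases kept (22.3%) was 16.5% in the higher-scoring 50% of each list. WT LSD1 was listed in 1 gene with the gene body alone, in 4 with 20 kb flanks and in 1 in the higher-scoring 50%. YAP LSD1 was listed in 2 genes with lists of equal number and in 1 in the higher-scoring 50%. With H3K4me2 within 1 kb counted, 69.4% of WT and 57.3% of YAP H3K4me1 regions lay on it. The cause of these moves was not tested. Leaving out Ttc39c, Shb, A1cf, Rere or Adk was chosen after seeing the data. No paired analysis was possible because the lists combine the replicates, and for that reason no replicate could be left out. Read depth is unknown, so a mark just under a list's threshold in 1 genotype cannot be told from an absent one.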
